A study of Caenorhabditis elegans with 2 samples.

Results

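The genes described here are 4 that make or guard the deoxynucleotides used for DNA synthesis in Caenorhabditis elegans: rnr-1, rnr-2, tyms-1 and dut-1. They were chosen by name, out of 19973 nuclear protein-coding genes, and each was examined for summits of LIN-35 binding within 500 bp of its annotated 5' end. LIN-35 is the worm's only member of the retinoblastoma family. It was profiled by ChIP-seq in 2 biological replicates of whole young adult worms of mixed sex, which form the only group of the study. Both came from strain YL521, which carries the mutation unc-119(ed3) on chromosome III and the integrated array vrIs117. In that array the pie-1 promoter drives LIN-35 joined to GFP and FLAG, with a puf-5 3' untranslated region and a wild-type unc-119 gene as the rescue marker. Both pie-1 and puf-5 are germline genes. The antibody is listed as lin-35, which names the target but not whether LIN-35 itself or its tag was recognised. No lin-35 deletion is listed, so tagged and endogenous protein cannot be told apart here. The labels give the age as unknown. Peak lists hold no expression values, so stage and tissue could not be checked against marker genes.

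Ribonucleotide reductase, built from the large subunit RNR-1 and the small subunit RNR-2, turns ribonucleotides into deoxyribonucleotides. Thymidylate synthase (TYMS-1) methylates dUMP to dTMP with a folate cofactor. The dUTPase DUT-1 destroys dUTP, which keeps uracil out of DNA and supplies dUMP. In mammalian cells genes of this pathway are classical targets of E2F factors, which the retinoblastoma family holds in check outside S phase. In worms LIN-35 acts with the E2F protein EFL-1 and its partner DPL-1 in the DREAM complex, in which LIN-54 recognises a second DNA element called CHR. In adult worms most dividing cells lie in the germline.

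Letters matching the E2F word (TTCCCGC or TTCGCGC or TTGCCGC or TTGGCGC) and the CHR word (TTCGAA or TTTGAA) were searched on both strands within 1000 bp of each 5' end, and a selection from the ribonucleotide reductase genes is shown to place the words against the summits. In all, rnr-1 had 4 E2F and 13 CHR words in that span and rnr-2 had 6 E2F and 8 CHR words. Those printed are the words within 100 bp of the rnr-1 summit and the E2F words upstream of either 5' end, so the E2F words farther inside the genes and the other CHR words are not printed. They are printed 5' to 3' on the strand of the gene, from the WBcel235 genome (the same assembly as ce11), with the named word in capitals and its neighbouring bases in lower case. A word on the opposite strand therefore appears as its reverse complement. Besides the rnr-1 word so labelled, these are the rnr-1 upstream word, the rnr-2 farthest word and the later of the overlapping rnr-2 words. In rnr-1 a tandem pair of CHR words and a pair of E2F words facing each other lay beside the strongest pooled summit, inside an intron, and a further E2F word lay just upstream of the 5' end.
rnr-1 CHR pair, chrIII:9228410-9228437, minus strand: gttttcctTTTGAATTTGAAttccgatg
rnr-1 E2F word on the gene's strand, chrIII:9228366-9228388, minus strand: gtctcgttTTCGCGCgttcctct
rnr-1 E2F word on the opposite strand, chrIII:9228342-9228364, minus strand: ttacctagGCGCGAAaactagta
rnr-1 upstream E2F word, chrIII:9228882-9228904, minus strand: agtaacccGCGGCAAaattgtgt
In rnr-2 the E2F words lay away from the summit at the 5' end. The nearest was 162 bases from it, and a group of 3, a pair of which overlap, lay farther upstream.
rnr-2 upstream E2F word, chrIII:4095130-4095152, minus strand: gtcagcatTTCCCGCccttcacc
rnr-2 overlapping E2F words, chrIII:4095602-4095627, minus strand: tcgaacaaTTGGCGCGAAacctctat
rnr-2 farthest E2F word, chrIII:4095629-4095651, minus strand: caaaacgcGCGCCAAaatttgaa

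LIN-35 binding passed the authors' reproducibility threshold at 1 of the 4 genes, tyms-1 (25.0%). By the same rule 1719 of the 19973 coding genes were bound, or 8.61%. With 4 genes this is a description of each gene and not a rate. Peaks are ranked here by the signal value the authors deposited, whose scale is not stated, and which is compared within a list only. The thresholded list holds 2712 peaks with signals down to 41.9, and they are the 2712 strongest of the 30000 in the relaxed list made from both replicates pooled. The relaxed lists of replicate 1 and replicate 2 hold 30000 and 26192 peaks. The pooled relaxed list is labelled as peaks and background, and its deposited −log10 q-values run down to 0.255. Those of replicate 1 and replicate 2 run down to 0.253 and 0.362. An entry in a relaxed list is therefore not by itself evidence of binding. The depth behind each list is unknown, and no interval can be given for a signal.

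Although 3 of the 4 genes missed the threshold, all 4 had a summit in the pooled relaxed list within 500 bp, as had 29.2% of coding genes. The strongest such summit had a signal of 53.4 at tyms-1, 34.3 at rnr-1, 34.2 at dut-1 and 12.4 at rnr-2. Thus rnr-1 and dut-1 were nearly equal and lay between tyms-1, inside the threshold, and rnr-2. The median of the 4 was 34.2, and the median over all coding genes was 0, with genes lacking a pooled summit set to 0. The tyms-1 signal was above that of 92.9% of coding genes, rnr-1 and dut-1 each above 89.6%, and rnr-2 above 79.1%. In rank, rnr-1 and dut-1 stood at 3649 and 3659 of 30000. These 2 of 4 genes were therefore in the stretch from the threshold to rank 5424, which is as many peaks again as the thresholded list. Of all coding genes, 4.26% had their strongest pooled summit in that stretch, a range chosen after the ranks were seen.

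**Figure D1:**
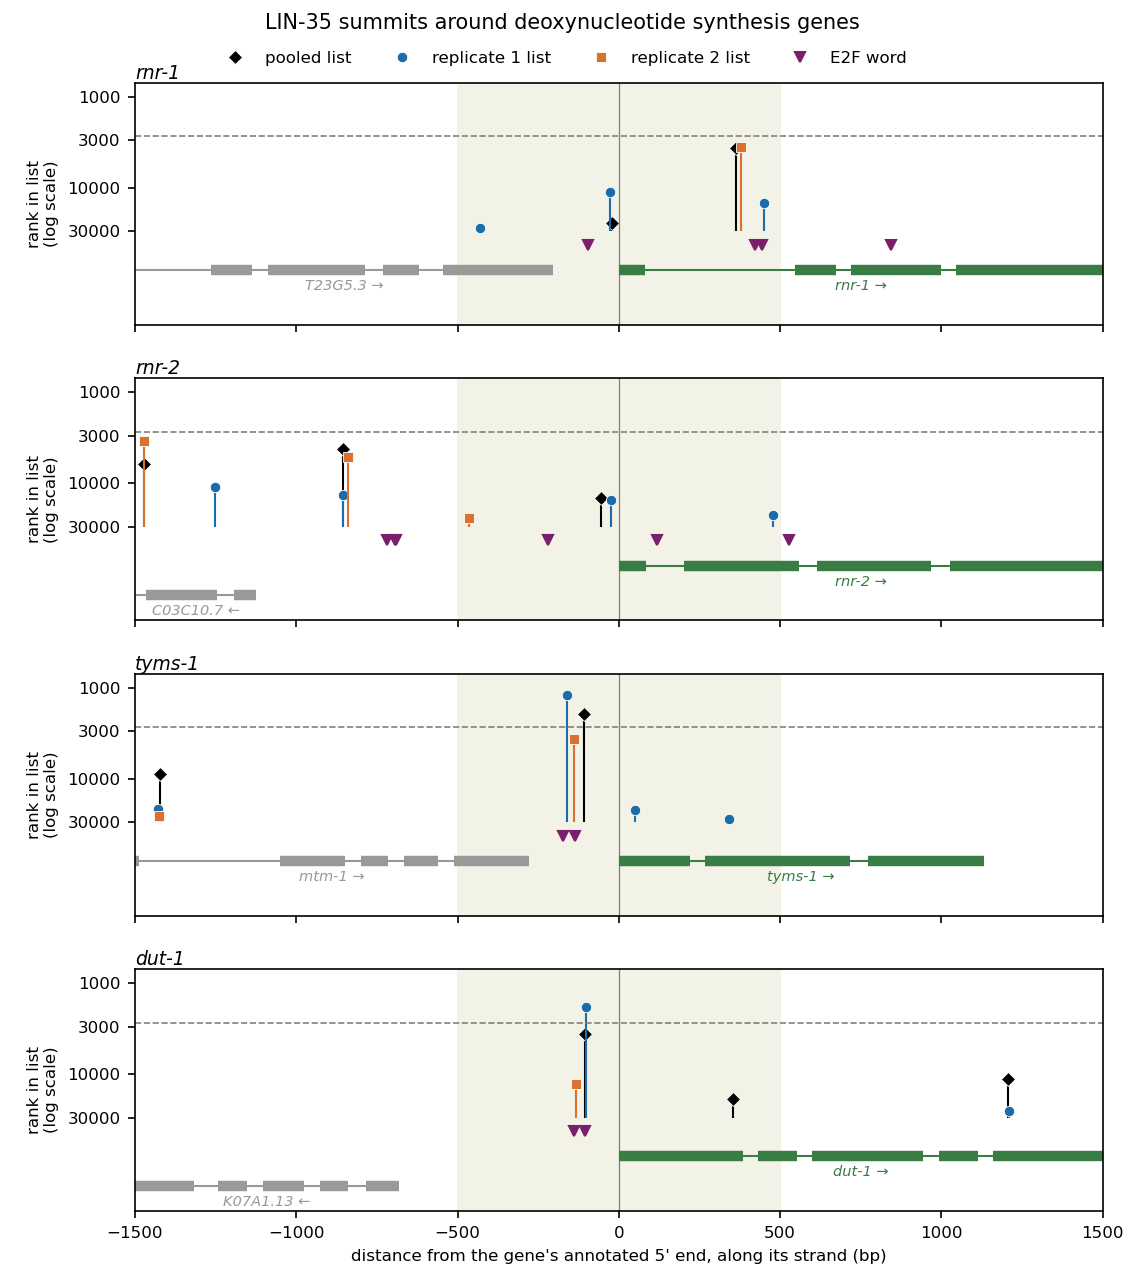
LIN-35 summits around the 4 genes, by distance from the annotated 5' end along the gene's strand (bp, horizontal axis) and rank in the pooled, replicate 1 or replicate 2 list (vertical axis, log scale, strongest at the top). The dashed line is rank 2712, the shaded band is 500 bp on each side, triangles are E2F words, thick bars are exons and arrows give the direction of each gene. The pooled summit passes the line at tyms-1 alone, 107 bp upstream of its 5' end, and lies 365 bp inside rnr-1.

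The gene for thymidylate synthase, tyms-1, carried the strongest binding and had no other 5' end near it. The gene lies on chromosome I from 5138250 to 5139382 on the plus strand, and its peak ran from 5137995 to 5138290 with an intergenic summit 107 bp upstream of the 5' end. The upstream gene mtm-1 ends 278 bp before tyms-1 and points the same way, so the summit fell in the short gap between them. The peak ranked 1922 of 2712 in the thresholded list. In replicate 1 the matching summit lay 161 bp upstream with a signal of 30.9, at rank 1211. In replicate 2 it lay 140 bp upstream with a signal of 21.4, at rank 3645. The peak was among the 2712 strongest of replicate 1 and outside them in replicate 2, a state shared with 164 of the 1719 bound genes (9.54%), while 1090 (63.4%) were among the strongest of both. With replicate 2 alone tyms-1 was therefore not bound.

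The dUTPase gene dut-1 was bound in replicate 1 taken alone. It lies on chromosome I from 9585417 to 9587203 on the plus strand, and no other 5' end was within 500 bp of its summits. The pooled summit was intergenic, 106 bp upstream, almost the same offset as at tyms-1. The replicate 1 summit was 101 bp upstream with a signal of 24.5 and rank 1828. The replicate 2 summit was 132 bp upstream with a signal of 7.26 and rank 12899. The summits of both replicates thus lay close together, while the peak was in the top 6.09% of the replicate 1 list and at 49.2% of the replicate 2 list. Cutting each replicate list to its 2712 strongest peaks gave 2 of the 4 genes in replicate 1, tyms-1 and dut-1, against 7.75% of coding genes. The same cut gave 0 of 4 in replicate 2, against 8.47% of coding genes.

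Of the ribonucleotide reductase genes, rnr-1 had its strongest summit inside the gene. It lies on chromosome III from 9225339 to 9228798 on the minus strand, and the pooled peak from 9228285 to 9228580 had its summit in an intron, 365 bp downstream of the annotated 5' end. The annotation gives rnr-1 2 transcripts, and the second starts 548 bp downstream of the first, so the summit was 183 bp upstream of that second start. In replicate 2 the summit lay 380 bp downstream with a signal of 21.9 and rank 3521. In replicate 1 it lay 450 bp downstream with a signal of 6.18 and rank 14519. As a share of list length these ranks were 48.4% in replicate 1 and 13.4% in replicate 2, whereas tyms-1 and dut-1 stood nearer the top in replicate 1 (4.04 and 6.09%) than in replicate 2 (13.9 and 49.2%). A weaker summit at the annotated 5' end itself appeared 22 bp upstream in the pooled list (signal 6.43, rank 24506). In replicate 1 it was 27 bp upstream (signal 7.80, rank 11119) and stronger than the intronic one. Its deposited −log10 q was only 0.508 in the pooled list and 3.5 in replicate 1. Replicate 2 had no summit at the annotated 5' end. The upstream gene T23G5.3 ends 203 bp before rnr-1 and points the same way.

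The small subunit gene rnr-2 had the weakest summit of the 4. It lies on chromosome III from 4093308 to 4094921 on the minus strand. The pooled summit was intergenic, 55 bp upstream of the 5' end, at rank 14322. Replicate 1 had a summit 25 bp upstream with a signal of 5.85 and rank 15303. Replicate 2 had none within 200 bp of the pooled one. Its only summit within 500 bp was 464 bp upstream, with a signal of 2.64, rank 24055 and −log10 q of 0.651. A stronger pooled summit lay 854 bp upstream of rnr-2, with a signal of 31.2 and rank 4190, and was present 855 bp upstream in replicate 1 (rank 13530) and 838 bp upstream in replicate 2 (rank 5173). The coding 5' end nearest to that summit was that of the divergent gene C03C10.7, at 270 bp. It too was below the threshold, so rnr-2 was unbound within 1000 bp as well.

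**Figure D2:**
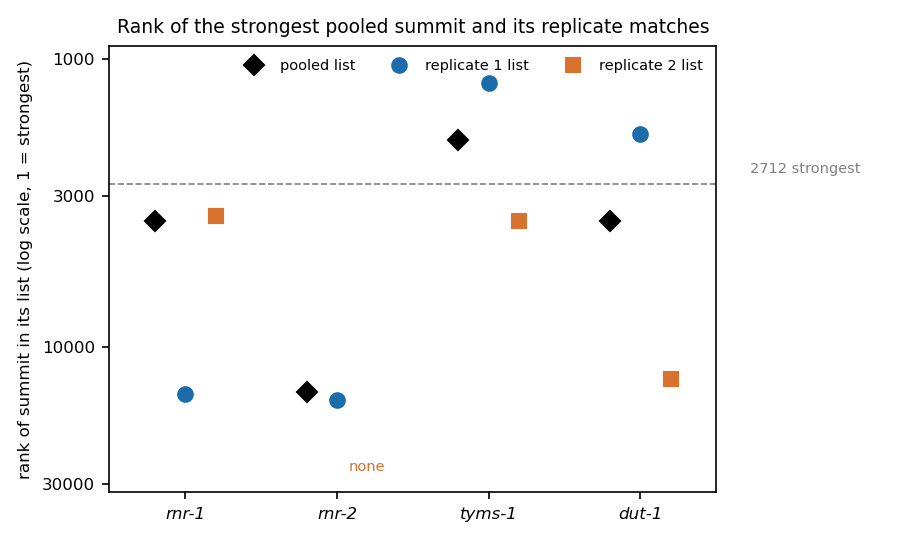
Rank of the strongest pooled summit within 500 bp of each gene (diamonds) and of the strongest summit within 200 bp of it in replicate 1 (circles) and replicate 2 (squares), on a log scale with the strongest at the top; the dashed line is rank 2712. Ranks differ widely between replicates at rnr-1 and dut-1, tyms-1 and dut-1 are above the line in replicate 1, and no gene is above it in replicate 2.

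The strongest pooled summit had a summit within 200 bp in both replicate lists at 3 of the 4 genes, all but rnr-2, against 54.6% of the 5824 coding genes with a pooled summit. The shifts from the pooled summit were 5 bp in replicate 1 and 26 bp in replicate 2 at dut-1, 54 and 33 bp at tyms-1, and 85 and 15 bp at rnr-1. Within 50 bp the count was 1 of 4, dut-1, against 30.6% of the coding genes with a pooled summit. Of the 2 genes just below the threshold, dut-1 was among the 2712 strongest in replicate 1 only, as were 129 of the 851 coding genes in the same stretch of ranks (15.2%). The other, rnr-1, was among the strongest of neither, like 599 of the 851 (70.4%).

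Among bound genes the 2 most like tyms-1 in rank were div-1, which encodes a subunit of DNA polymerase alpha, and C06B3.6. Likeness was the largest absolute log2 ratio of ranks over the pooled, replicate 1 and replicate 2 lists, computed for 1646 bound genes with a summit in each. It was 0.136 for div-1, whose summit lay 36 bp upstream of its 5' end at rank 1749 in the pooled list, 1179 in replicate 1 and 3767 in replicate 2. It was 0.20 for C06B3.6, with ranks of 1673, 1180 and 3942 and a summit 323 bp inside the gene.

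E2F words stood within 100 bp of the strongest pooled summit at 3 of the 4 genes, tyms-1, dut-1 and rnr-1. Over the strongest pooled summits of the coding genes that had one within 500 bp, each summit counted once, the share was 12.9% of 5151 windows. It was 24.7% of the 1354 thresholded summits near coding 5' ends and 10.7% of 731 summits in the stretch just below the threshold. At dut-1 an E2F word spanned the summit and another lay 29 bases from it. At tyms-1 the words were 26 and 64 bases from the summit, both on its upstream side. At rnr-1 the facing pair shown above was 53 and 77 bases from the intronic summit, on its downstream side. The same letters reversed, which keeps base composition, were found at 1 of the 4 genes and in 7.03% of the 5151 windows.

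Counted from the gene instead of the summit, all 4 genes had an E2F word between 250 bp before and 50 bp after the 5' end. Of the 19973 coding genes 9.20% had one in the same window. The reversed letters were found at 3 of the 4 genes and in 5.49% of all coding genes, so the composition control was also frequent at these genes. At rnr-2 the word from 223 to 217 bp upstream fell in this window but 162 bases from the summit. The 3 words farther upstream of rnr-2, from 722 to 689 bp before the gene, were 132 to 159 bases from the stronger summit near C03C10.7. These matches are letters in the genome and were not tested as binding sites.

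A CHR word lay within 100 bp of the strongest pooled summit at 3 of the 4 genes, all but rnr-2. The word is common: 52.6% of the 5151 windows of coding genes with a pooled summit and 55.2% of those at thresholded summits held it, so 3 of 4 is near the background. The same 3 genes had one within 50 bp, where the shares were 31.3% over coding genes with a pooled summit and 33.6% at thresholded summits. Between 250 bp before and 50 bp after the 5' end 3 of the 4 genes had a CHR word, against 68.9% of all coding genes. The nearest CHR word began 4 bases from the summit at rnr-1, 8 bases at tyms-1 and 15 bases at dut-1. It was nearer to the summit than any E2F word at rnr-1 and tyms-1, and farther at dut-1. In rnr-1 the pair printed above ran from 4 to 15 bases downstream of the summit without a gap. Within 100 bp the counts were 3 words at tyms-1, 2 at dut-1, 2 at rnr-1 and 0 at rnr-2. The reversed CHR letters were within 50 bp at 2 of the 4 genes, against 14.8% over coding genes with a pooled summit. The mean GC content of the 4 windows of 201 bp was 36.7%, and that of the windows of all coding genes with a pooled summit was 37.6%.

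**Figure D3:**
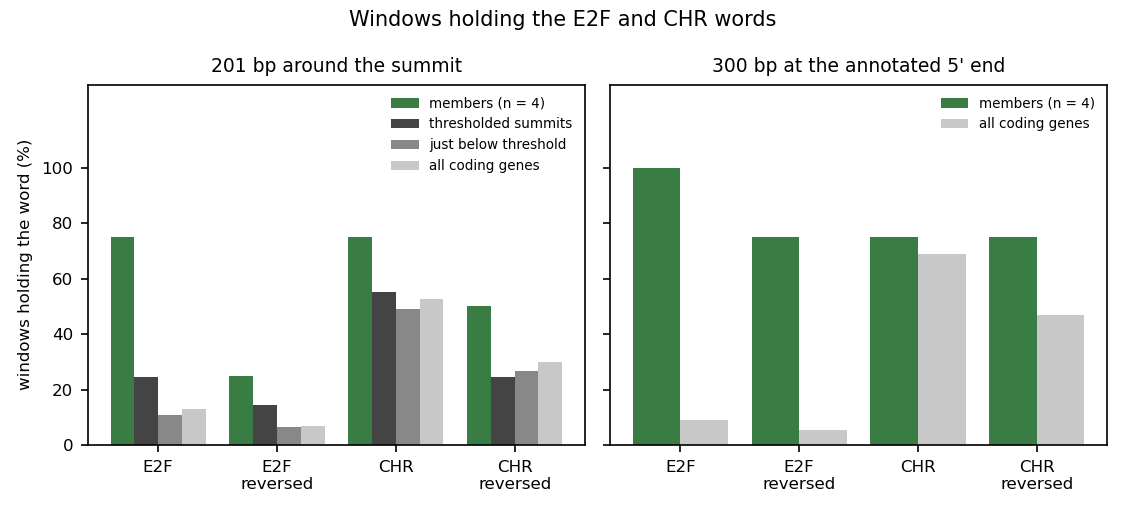
Share of windows (%) that hold the E2F word, the CHR word or the same letters reversed, in 201 bp around summits (left) and in 300 bp at annotated 5' ends (right). At left the bars for all coding genes cover only those with a pooled summit. The bars of the members are shares of 4 windows, so each step is 25%; E2F words were in 75.0% of member windows at summits and in all 4 at 5' ends, and reversed E2F letters in 25.0% and 75.0%.

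Binding also reached other steps of nucleotide and folate metabolism. Of 29 such genes 8 were bound (27.6%), beside the 8.61% of all coding genes given above, and the median strongest pooled signal of the 29 was 0, with a pooled summit at 14 of them. In purine synthesis 3 of 10 were bound: the GMP synthase gene gmps-1 (signal 320), the IMP dehydrogenase gene T22D1.3 (42.6) and the adenylosuccinate synthase gene adss-1 (42.4). In pyrimidine synthesis 2 of 4 were bound, the UMP synthase gene umps-1 (246) and the CTP synthase gene ctps-1 (96.7). In the folate cycle 2 of 4 were bound, the serine hydroxymethyltransferase gene mel-32 (74.2) and the methylenetetrahydrofolate reductase gene mthf-1, with summits of 60.4 and 58.4. Of 3 nucleotide kinase genes 1 was bound, ndk-1, which encodes nucleoside diphosphate kinase (315). None of 5 salvage and breakdown genes and none of 3 genes for thioredoxin or glutaredoxin electron donors was bound. The thymidylate kinase gene dtmk-1 acts right after tyms-1 and was picked out after its value was seen. In the pooled list it had a signal of 35.4 at rank 3499, close to those of rnr-1 and dut-1. The replicate ranks were less alike. They were 6116 in replicate 1 and 4002 in replicate 2 at dtmk-1, 14519 and 3521 at rnr-1, and 1828 and 12899 at dut-1. The gmps-1 summit was nearer to cap-2 (231 bp) than to gmps-1 (245 bp), the ctps-1 summit nearer to pus-1 (190 against 264 bp), and the ndk-1 summit, 47 bp from ndk-1, also lay 406 bp from F25H2.6. Within 200 bp only ndk-1 of the 29 was bound, a lower share than the 4.49% of all coding genes, so the list was not above the background at that distance. Of the 4 deoxynucleotide genes tyms-1 was bound within 200 bp too.

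Bound genes of the replication machinery had higher signals than tyms-1, as had most thresholded peaks, among which tyms-1 ranked 1922 of 2712. The strongest pooled signal within 500 bp ranged from 12.4 to 53.4 over the 4 deoxynucleotide genes. Over the 6 MCM helicase genes it ran from 0 at mcm-6, which had no pooled summit, to 256 at mcm-4. Of the MCM genes 5 were bound, with signals of 142 at mcm-7, 82.1 at mcm-3, 75.8 at mcm-2 and 63.7 at mcm-5 besides mcm-4, so each bound MCM gene exceeded tyms-1. Of 5 genes of the sliding clamp and its loader 3 were bound, pcn-1 (427), rfc-4 (297) and rfc-1 (55.8), and all 3 exceeded tyms-1. The median signal of the thresholded list was 68.75, and mcm-5 and rfc-1 were below it. The loader genes rfc-3 (13.7) and rfc-2 (7.62) were unbound and in the range of rnr-2 or below it. The mcm-3 and rfc-4 summits had another 5' end nearer, that of C25D7.15 at 38 bp and of a microRNA gene at 0 bp. None of the 4 deoxynucleotide genes had a thresholded peak among the 2712 strongest of both replicates, against 5 of 6 MCM genes, 2 of 5 clamp genes (not rfc-1, at rank 4575 in replicate 1) and 5.48% of all coding genes, near which 0 of 4 lies. These lists are small, and no test compares them with the deoxynucleotide genes.

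**Figure D4:**
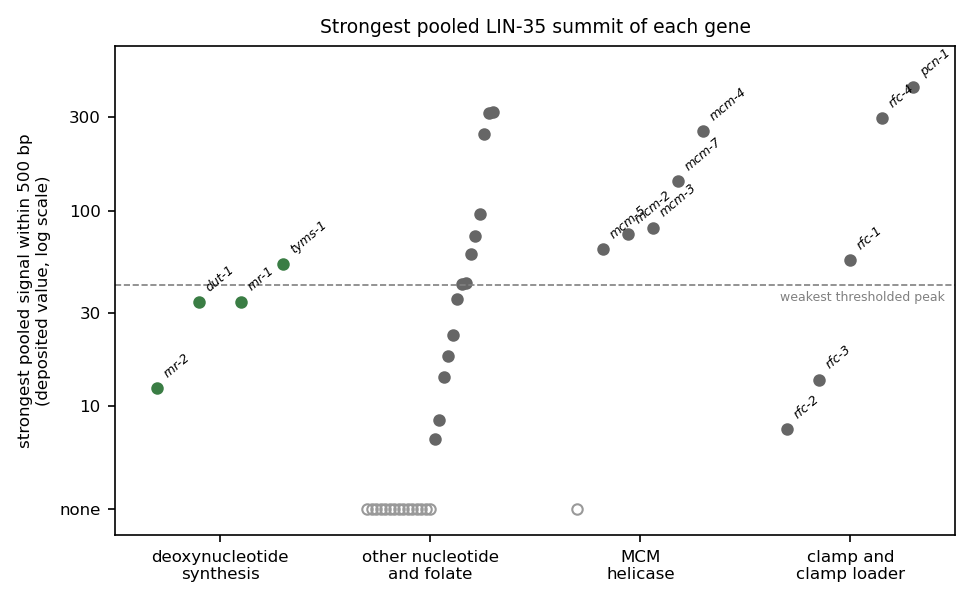
Strongest pooled signal within 500 bp of each gene's 5' end (deposited value, log scale) for the 4 deoxynucleotide synthesis genes, 29 other nucleotide and folate genes, 6 MCM genes and 5 clamp genes; open circles are genes with no pooled summit, and the dashed line is the weakest thresholded peak at 41.9. Among the deoxynucleotide genes tyms-1 is above the line at 53.4, and rnr-1 and dut-1 sit together at 34.3 and 34.2.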

How the data were processed

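LIN-35 ChIP-seq peak lists on ce11 were used as deposited: the thresholded list, the relaxed list from both replicates pooled and 1 relaxed list per replicate. Per the deposited text indexes, the authors made the relaxed lists with a control and derived the thresholded list from them by irreproducible discovery rate. Sources used here name no aligner or peak caller. The signal is the authors' deposited score for each peak. The q-value was deposited by the authors as −log10, is 3.78 for every thresholded peak and was not used to rank, match or call peaks. Summits were the peak start plus the deposited offset, 1-based. Lists on ce10 were not used, since coordinates were not converted.

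Gene 5' ends came from Ensembl release 115 (WBcel235) and bases from the RefSeq copy of that assembly. No annotation of transcription starts or of operons was available. The 5' ends are those of the gene models and may differ from the transcription starts, so offsets are relative to the models only. A gene counted as bound with a thresholded summit at most 500 bp from its 5' end, and every gene within reach of a summit counted. Replicate summits within 200 bp were matched, taking the strongest. The study has 1 group of 2 replicates and no comparison list, so no test was run; counts stand beside the share of all nuclear coding genes. The matching was checked on planted summits, and 64 of 64 planted within 500 bp were recovered. Python 3.11.15, numpy 2.4.6, pandas 2.3.3 and matplotlib 3.10.9 were used.

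The members and gene lists were chosen with earlier results of these data known. Besides the members, the rule named genes sharing a member's thresholded summit, bound genes of the other lists, and the 2 genes most like each bound member in rank. Neighbours of the members, dtmk-1, mcm-6, rfc-2 and rfc-3 were named after their values were seen. The listed symbols cda-1 and cda-2 are not used by the annotation and were left out. A further member is not reported here. The alternatives were other distances, 5' ends, list lengths and windows, merged peaks and each replicate alone; the 5424 strongest pooled peaks and reversed words were added after seeing the data.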

Additional observations from a re-analysis of the deposited data

How the results depend on the processing

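Of the 4 genes, 1 was bound in the main setting and also at 200 bp, at 1000 bp, with the nearest coding 5' end only, with any transcript's 5' end and with merged peaks. The count was 0 with the 1356 strongest thresholded peaks and 0 with thresholded peaks among the 2712 strongest of both replicates; single replicates gave 0 to 2, and the 5424 strongest pooled peaks 3 (all coding genes 2570, or 12.9%). Replicate 1 alone gave tyms-1 and dut-1. The setting with 5424 peaks and the reversed letters were added after seeing the data. All coding genes bound numbered 897 at 200 bp, 1103 with the 1356 strongest peaks and 1094 with peaks among the strongest of both, against 1719. The other nucleotide and folate genes numbered 1 at 200 bp, 5 with the 1356 strongest peaks and 6 with peaks among the strongest of both replicates, against 8. Summits matched in both replicates within 50 bp at 1 of the 4 genes, dut-1 (30.6% of coding genes with a pooled summit), and at 3 within 100 bp (42.6%) or 200 bp (54.6%). The E2F word was within 100 bp of 3 of the 4 summits (12.9% of windows of coding genes with a pooled summit) and within 50 bp of 2 (8.66%). Its reversed letters were within 100 bp of 1 (7.03%). Depth is unknown, so a weak or missing summit does not show absence of binding. No paired analysis was possible because the study has 1 group.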

Other observations

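Farther from the 5' ends, tyms-1 had a summit in each relaxed list between 1423 and 1430 bp upstream, inside an intron of mtm-1. Its rank was 8957 in the pooled list, 21227 in replicate 1 and 25379 in replicate 2. The deposited −log10 q was 3.55, 1.14 and 0.462 in the same order. Inside the coding sequence of dut-1 the pooled list had a summit 1208 bp from the 5' end (rank 11165, −log10 q 2.72). It had a match in replicate 1 at 1209 bp (rank 25191, −log10 q 0.633) and none in replicate 2.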
